A study of Mus musculus with 6 samples.

Results

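Of the 10 genes of arginine and tryptophan use named for this account, 9 were measured out of 19938 genes on the arrays. They were found by symbol, taking array features (probe sets) that the platform annotation assigns to exactly 1 gene, and for each gene the feature with the highest mean over the 6 arrays. Arg1, Arg2, Nos2 and Odc1 break arginine or its product ornithine down, Slc7a1 and Slc7a2 carry arginine into the cell, Asl belongs to its resynthesis, and Ido1 and Wars act on tryptophan. Ass1, the partner of Asl, was dropped because its features carry the symbols of 2 genes.

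RNA came from CD11b+Gr-1+ cells sorted out of the liver of C57BL/6 mice in which EL4 tumours, a transplantable mouse T cell lymphoma, had been established. All mice carried the tumour. One group of 3 arrays came from mice injected with PBS, which the sample titles call untreated, and the other group of 3 from mice given Type IV concanavalin A (Con A), a lectin from jack beans that stimulates T cells and inflames the liver. The labels give the Con A dose as 12.5 mg/kg in one place and 12.5 ug/kg in another, and cells were taken 3 hours after injection in both groups. With 3 mice named per group, it is not said whether 1 array holds 1 mouse, and the labels give neither age nor sex, so p-values reflect only how far these samples scatter, and that scatter may be technical. The arrays are called PBS 1 to PBS 3 and Con A 1 to Con A 3, after the replicate numbers in the labels.

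The labels call the sorted cells myeloid-derived suppressor cells, immature granulocytes and monocytes that can restrain T cells. Use of amino acids is one of the best known ways in which they do so. Arginase splits arginine into ornithine and urea, inducible nitric oxide synthase turns it into citrulline and nitric oxide, and both deprive T cells of arginine. Indoleamine 2,3-dioxygenase does the same for tryptophan. The title of the study names suppressor function, and the comparison of Con A with PBS asks how transcripts of this machinery differed in the sorted cells.

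After Con A, 5 of the 9 genes rose and 0 fell. The arginine transporter gene Slc7a2 rose 12.6-fold, the tryptophanyl-tRNA synthetase gene Wars 3.45-fold, Nos2 3.44-fold, Arg1 2.00-fold and Arg2 1.41-fold. Slc7a1, Odc1, Asl and Ido1 did not pass the test. The test was limma's moderated test, with p-values adjusted after Benjamini and Hochberg across the 19938 genes and called below 0.05, and by it 4.59% of all genes rose and 11.8% passed in either direction. The median difference of the 9 genes was 0.50 on the log2 scale, against 0.02 over all genes tested. A rise of 2-fold or more was found in 4 of the 9, and in 1.2% of all genes. The 3 Con A arrays lay above the 3 PBS arrays in 7 of the 9 genes, which was the case in 14.4% of all genes (29.9% had groups apart in either direction).

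**Figure D1:**
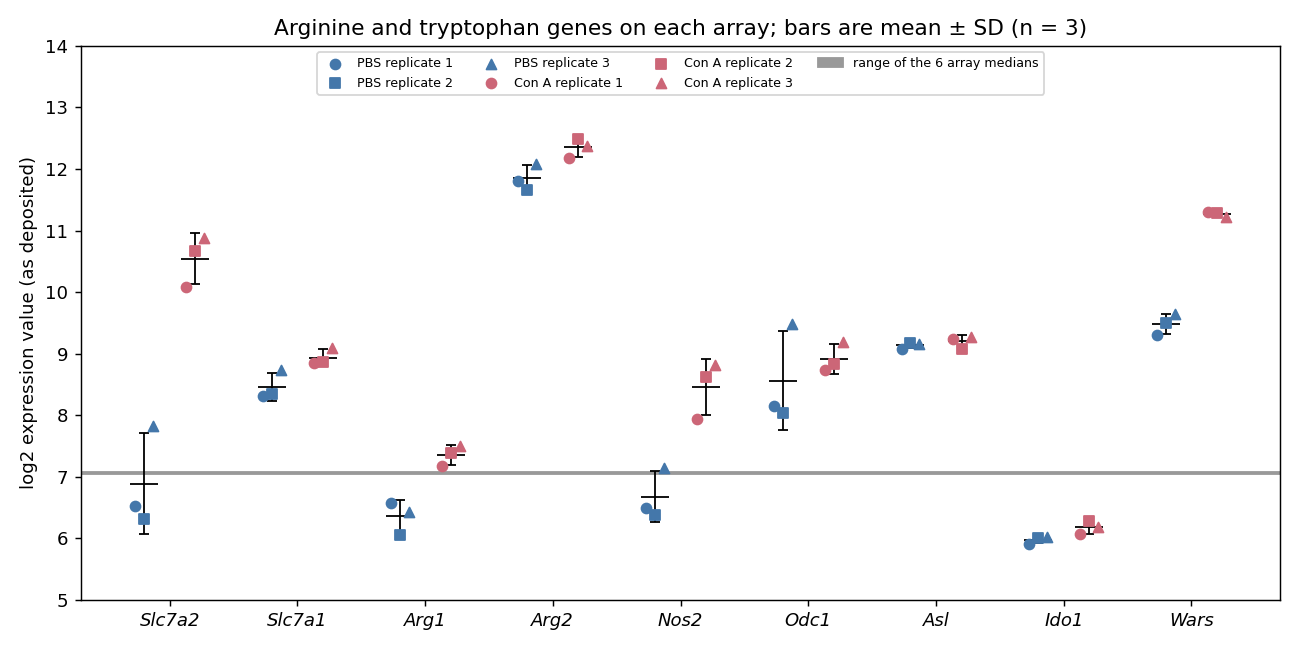
The vertical axis gives the deposited log2 expression value, and each gene on the horizontal axis has its 3 PBS arrays (blue) and 3 Con A arrays (red), with the mean and SD (n = 3) in black and the range of the 6 array medians as a grey line. The groups overlap for Odc1 and Asl, and for Slc7a2 the lowest Con A array (10.08) lies well above the highest PBS array (7.82).

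Levels are log2 values as deposited, so a difference of 1 is 2-fold, and differences are Con A minus PBS. Array medians lay between 7.05 and 7.08. Array values can compress differences at both ends of the scale, which would understate the folds of dim and of very bright genes. This was not tested here. The files hold no detection calls. Features differ in how brightly they report, so the level of one gene is set against the array medians here and not against another gene.

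In the labelled cell type, 12 granulocytic markers averaged 13.4 to 13.5 on every array, near the top of the scale, of which 0 rose and 1 fell (Mmp9). The 10 monocytic markers averaged 10.5 to 10.8 after PBS and 9.45 to 9.94 after Con A, and 4 fell and 1 rose. Over all genes 7.22% fell. The gene that rose, Irf8, was the only 1 of the 10 with a positive difference and is also in the interferon-gamma list below. Its call ended in 4 of 6 fits with 1 array left out (limma adjusted p up to 0.0807). In bulk samples, fewer cells of a type and less RNA per cell cannot be told apart. Of 11 eosinophil, basophil and mast cell markers 5 rose and 0 fell, with averages of 7.91 to 8.47 after PBS and 8.62 to 9.45 after Con A. Over all genes 4.59% rose. The calls of Epx, Prg2 and Gata2 ended in 4, 4 and 5 of 6 fits with 1 array left out. Their limma adjusted p reached 0.161, 0.146 and 0.164, and the call of Kit held in all 6. Con A 2 stood apart in 10 Kupffer cell markers, at an average of 9.28 against 7.55 to 8.15 on the other arrays, and in 19 hepatocyte markers, at 7.34 against 6.70 to 6.76. In neither list did a gene pass the test. PBS 3 and Con A 3 had the highest averages of 10 dendritic cell markers, 8.22 and 8.28 against 7.60 to 7.81, with 0 of that list rising and 1 falling. Not every marker shared this order. Ccr7 stood at 9.78 and 10.24 on these arrays and at 8.22 to 8.68 on the others. Wdfy4 and Clec9a, at 10.47 and 6.70 in PBS 3, were lower there than in PBS 1 and PBS 2. Ccr7 and Clec9a were chosen after their values were seen. Of 9 endothelial markers 1 rose and 1 fell, and of 9 T cell and EL4 markers 0 passed, with averages of 6.67 to 6.83. The part of these shifts in the results below was not tested. A value with 1 array left out bears only on a shift of that array, such as that of Con A 2. It cannot address shifts seen on all 3 Con A arrays, as in the monocytic markers.

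Slc7a2 encodes the cationic amino acid transporter CAT2, which brings arginine into activated macrophages. Its level was 6.52, 6.32 and 7.82 in PBS 1 to 3 and 10.08, 10.67 and 10.89 in Con A 1 to 3. The groups lay 2.25 apart at their closest, and PBS 3 was the highest of the PBS arrays. Slc7a2 rose by 3.66 (95% interval 2.74 to 4.58, limma adjusted p = 0.00181), the 4th largest rise of all genes. The PBS mean lay 0.17 below the array medians and the Con A mean 3.49 above them. With 1 array left out the rise ranged from 3.37 (without PBS 2) to 4.12 (without PBS 3), with adjusted p up to 0.0153.

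Slc7a1 encodes CAT1, the constitutive arginine transporter of most cell types. Its level was 8.31, 8.34 and 8.73 after PBS and 8.85, 8.86 and 9.09 after Con A. The groups did not overlap, but PBS 3 and Con A 1 were only 0.13 apart. The difference was 0.48 (95% interval 0.17 to 0.78) and missed the threshold (limma adjusted p = 0.0578). Without PBS 3 it was 0.61 with an adjusted p of 0.00728, and with any other single array left out the adjusted p lay between 0.102 and 0.186. It also passed with array weights (0.0172), after quantile normalization (0.0223) and among genes above the median level only (0.045).

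Slc7a2 and Slc7a1 serve the same substrate, and their changes were compared within each array. The Slc7a2 value minus the Slc7a1 value was -1.79, -2.02 and -0.90 after PBS and 1.23, 1.81 and 1.80 after Con A, so the change of Slc7a2 exceeded that of Slc7a1 by 3.18. The groups did not overlap (exact permutation test, two-sided p = 0.1, which is the smallest that 3 against 3 can give, and adjusted p = 0.1 over the 4 pairs of genes compared in this way).

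RefSeq promoter windows, 250 bases before to 50 bases after a transcription start in assembly GRCm38.p6, were matched for 3 of the 10 genes, Slc7a1, Odc1 and Ass1. None of the genes that rose was among these 3. The windows were searched on both strands for letters that interferon-gamma or amino acid shortage factors are known to bind. A window of Slc7a1 is printed below because that gene lay at the edge of the threshold. This choice was made after its values were seen. The upstream of the 2 Slc7a1 starts, on the minus strand, held no GAS (TTCNNNGAA), ISRE (GAAA, any 2 bases, GAAA) or amino acid response element (TGATGNAA) match. The downstream start, at chr5:148392766-148393065 on the minus strand, held 1 GAS match, which begins 146 bases before the start and is set in capitals. The GAS pattern reads the same on both strands, so every match fits it on both.

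Slc7a1: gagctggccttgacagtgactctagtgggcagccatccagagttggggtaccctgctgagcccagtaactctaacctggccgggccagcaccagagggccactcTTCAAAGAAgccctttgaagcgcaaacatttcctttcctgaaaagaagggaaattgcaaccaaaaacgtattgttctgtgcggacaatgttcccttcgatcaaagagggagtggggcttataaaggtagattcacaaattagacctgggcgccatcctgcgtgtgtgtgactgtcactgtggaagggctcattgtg

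Of 32851 RefSeq promoter windows of the same length, 8.3% held a GAS match, 3.44% an ISRE match and 3.97% an amino acid response element match. The single Odc1 window held none of these. The looser kappa B pattern (GGG, any 5 bases, CC) was present in the upstream Slc7a1 window, in that of Odc1 and in an Ass1 window, and in 50.79% of all windows. A match describes letters in a window and no binding was measured.

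Arg1, the cytosolic arginase of liver and of alternatively activated macrophages, was dim on these arrays. Its level was 6.58, 6.06 and 6.42 after PBS and 7.17, 7.39 and 7.50 after Con A. All PBS arrays lay below the array medians, by 0.71 on average, and all Con A arrays above them, by 0.30 on average. Arg1 rose by 1.00 (95% interval 0.66 to 1.35, limma adjusted p = 0.00575), and the groups were 0.60 apart at their closest. Hepatocytes also express Arg1, and the hepatocyte markers were highest in Con A 2. Of the 19 hepatocyte markers 15 had a positive difference (median 0.19, against 0.02 over all genes tested), and 0 passed the test. The largest differences were 0.86 for the albumin gene Alb and 0.52 for the fibrinogen gene Fgb. The average of the 19 minus their PBS mean was 0.02 in Con A 1, 0.61 in Con A 2 and -0.03 in Con A 3. Without Con A 2 the rise of Arg1 was 0.98 (adjusted p = 0.0345). The part of hepatocyte RNA in the Arg1 values of the other arrays was not tested.

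Arg2 encodes the mitochondrial arginase. Its level was 11.81, 11.66 and 12.09 after PBS and 12.19, 12.49 and 12.37 after Con A, 4.79 and 5.29 above the array medians on average. The groups were 0.10 apart at their closest, between PBS 3 and Con A 1. Arg2 rose by 0.50 (95% interval 0.20 to 0.80, limma adjusted p = 0.0489), just inside the threshold. The call ended when any array other than PBS 3 was left out: adjusted p was 0.156 without PBS 1, 0.128 without PBS 2, 0.0551 without Con A 1, 0.169 without Con A 2 and 0.133 without Con A 3. It also ended after quantile normalization (0.0562). Without PBS 3 the rise was 0.62 and the adjusted p 0.0116.

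The change of Arg1 exceeded that of Arg2 by 0.50 on the log2 scale. Arg1 minus Arg2 was -5.23, -5.60 and -5.66 after PBS and -5.01, -5.11 and -4.87 after Con A. The groups did not overlap (exact permutation test, two-sided p = 0.1, the smallest possible). With 1 array left out this value ranged from 0.42 to 0.63. Arg1 lay near the array medians and Arg2 far above them, and the part of feature brightness in this value was not tested.

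Nos2 encodes inducible nitric oxide synthase, which competes with arginase for arginine. Its level was 6.50, 6.37 and 7.15 after PBS and 7.94, 8.61 and 8.81 after Con A. PBS 3 was the highest of its group and Con A 1 the lowest of its own, and they were 0.80 apart. Nos2 rose by 1.78 (95% interval 1.15 to 2.41, limma adjusted p = 0.0063). Its mean moved from 0.39 below the array medians to 1.40 above them. With 1 array left out the rise ranged from 1.61 to 2.04 and the adjusted p from 0.00181 to 0.0393. The change of Nos2 exceeded that of Arg1 by 0.78, and Nos2 minus Arg1 was -0.08, 0.31 and 0.72 after PBS and 0.77, 1.22 and 1.31 after Con A (exact permutation test, two-sided p = 0.1, the smallest possible).

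Odc1, ornithine decarboxylase, takes the ornithine made by arginase into polyamines. Its level was 8.15, 8.04 and 9.49 after PBS and 8.73, 8.82 and 9.18 after Con A. PBS 3 exceeded all Con A arrays, and the other PBS arrays lay below all of them. The difference was 0.35 (95% interval -0.49 to 1.20, limma adjusted p = 0.613). Without PBS 3 it was 0.82 and passed the test (adjusted p = 0.00896). With any other array left out the adjusted p was 0.626 or higher and the difference lay between 0.09 and 0.44. A second Odc1 feature had the same order of arrays, with 9.47 in PBS 3 and 8.60 to 9.02 after Con A, and a difference of 0.30.

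Asl, argininosuccinate lyase, completes the return of citrulline to arginine. Its level was 9.08, 9.18 and 9.15 after PBS and 9.24, 9.08 and 9.28 after Con A. The groups overlapped, and the difference of 0.06 (95% interval -0.12 to 0.25, limma adjusted p = 0.686) corresponds to an interval of 0.917-fold to 1.19-fold. The SD was 0.05 after PBS and 0.10 after Con A, and the median SD of all genes was 0.11 in both groups.

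Wars, which charges transfer RNA with tryptophan and is a known interferon-gamma target, changed most evenly. Its level was 9.30, 9.50 and 9.64 after PBS and 11.30, 11.28 and 11.23 after Con A. The groups were 1.59 apart at their closest, and the SD after Con A was 0.04. Wars rose by 1.79 (95% interval 1.56 to 2.02, limma adjusted p = 0.000431), and the rise lay between 1.70 and 1.87 with 1 array left out. The means were 2.42 and 4.21 above the array medians.

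Ido1, indoleamine 2,3-dioxygenase, which degrades tryptophan and is also a known interferon-gamma target, stayed below the array medians on all 6 arrays. Its level was 5.91, 6.01 and 6.01 after PBS and 6.07, 6.29 and 6.18 after Con A, on average 1.08 and 0.88 below the medians. The groups did not overlap but lay 0.05 apart. The difference of 0.20 (95% interval 0.01 to 0.39) did not pass the test (limma adjusted p = 0.19, and 0.154 to 0.428 over its alternatives). At this level differences can be compressed, and without detection calls the expression of Ido1 is not established. The change of Ido1 minus that of Wars was -1.59. Ido1 minus Wars was -3.39, -3.50 and -3.62 after PBS and -5.23, -5.00 and -5.05 after Con A (exact permutation test, two-sided p = 0.1, the smallest possible).

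**Figure D2:**
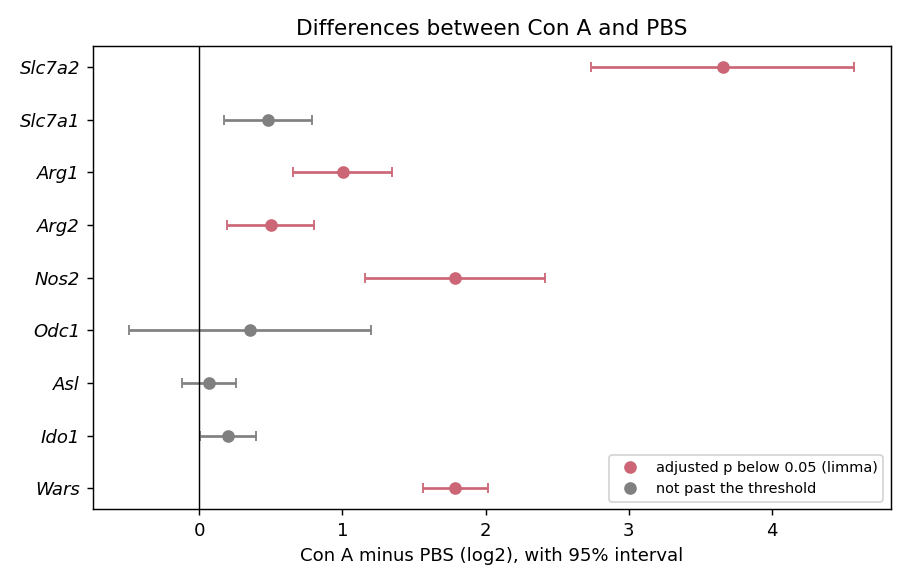
The horizontal axis gives the difference Con A minus PBS on the log2 scale with its 95% interval from limma, and each line is 1 gene. The 5 red genes had an adjusted p below 0.05, and the intervals of Odc1 (-0.49 to 1.20) and Asl (-0.12 to 0.25) include 0.

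The arrays of a group differed in a similar order across several of the genes. PBS 3 was the highest PBS array in 7 of the 9 genes, which it was in 32.6% of all genes, with Asl and Arg1 as the exceptions. Its largest excesses over the PBS mean were 0.93 in Slc7a2, 0.93 in Odc1 and 0.48 in Nos2. Con A 1 was the lowest Con A array in 7 of the 9 genes, against 32.2% of all genes, and Con A 3 the highest in 6, against 29.2%. The genes were chosen with such values known, so these counts are a description.

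**Figure D3:**
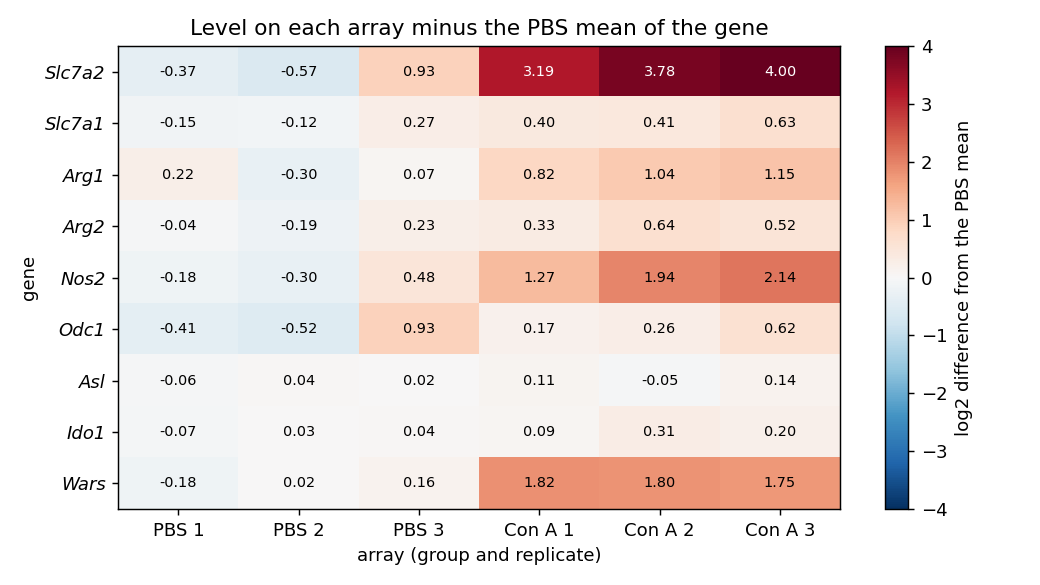
Each row is a gene and each column an array, and colour and number give the log2 level minus the PBS mean of that gene. Slc7a2, Nos2 and Wars are high on all 3 Con A arrays, and Odc1 is highest in PBS 3.

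**Figure D4:**
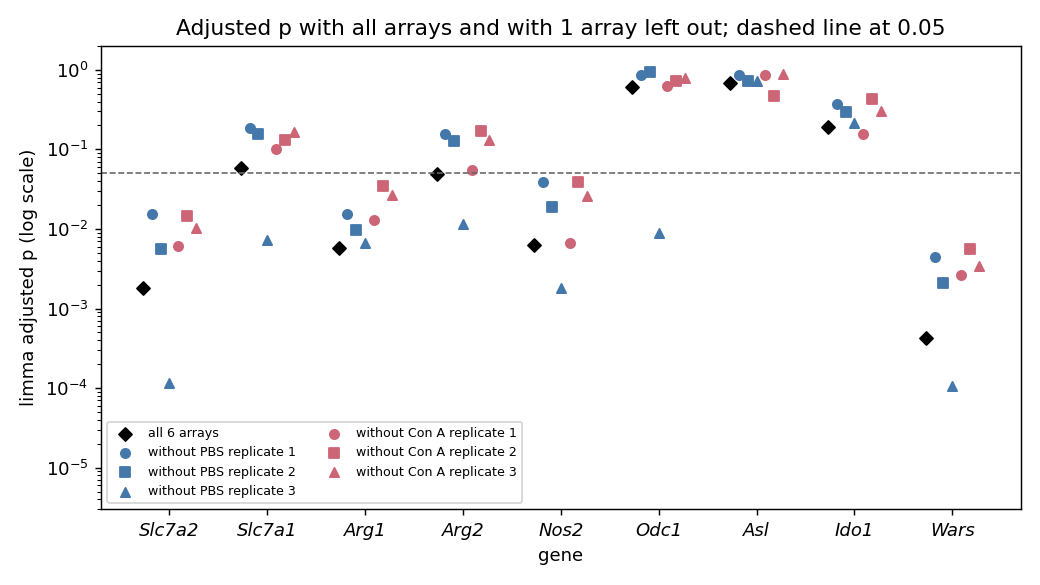
The vertical axis gives limma's adjusted p on a log scale, with all 6 arrays (black) and with each array left out in turn, and the dashed line marks 0.05. Slc7a2, Arg1, Nos2 and Wars stay below the line throughout, Arg2 and Slc7a1 cross it, and Odc1 falls below it without PBS 3 (0.00896).

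Most other genes of the same pathways did not pass the test. Of 97 measured genes in 8 lists arranged by role, 6 rose and 8 fell, against 4.59% of all genes that rose and 7.22% that fell. These counts depended on single arrays: 2 rose and 3 fell without PBS 1, 3 and 2 without PBS 2, 14 and 8 without PBS 3, 4 and 3 without Con A 1, and 3 and 3 when either Con A 2 or Con A 3 was left out. Of the 14 calls, 3 held in all 6 of these fits, those of Slc7a7, Azin1 and Azin2.

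Among 12 other transporters of arginine, tryptophan and their partners, 1 rose and 1 fell (median difference -0.03). Slc7a7, a subunit of a transporter that lets arginine out of cells, fell by 1.11, from 9.99 ± 0.18 to 8.88 ± 0.33 (SD, n = 3, limma adjusted p = 0.00707). Its PBS arrays, at 9.91, 9.87 and 10.20, all lay above its Con A arrays, at 8.51, 8.97 and 9.16. Slc7a5, a subunit of the LAT1 carrier of tryptophan and other large amino acids, rose by 0.68 (adjusted p = 0.0443), and lost that call without PBS 1, PBS 2, Con A 1 or Con A 3 (adjusted p up to 0.147).

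Among 10 urea cycle, ornithine and proline enzymes, 1 rose and 0 fell (median 0.17). It was Glul, glutamine synthetase, with a rise of 0.48 (adjusted p = 0.0111 by limma, and 0.0509 without PBS 1). Gatm, which transfers the guanidino group of arginine on the way to creatine, was chosen after its values were seen: it stood at 8.68, 9.39 and 10.40 after PBS and at 10.50, 10.67 and 11.04 after Con A, and its difference of 1.25 missed the threshold (adjusted p = 0.0895).

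Among 9 polyamine genes, 1 rose and 1 fell (median -0.13), and both encode antizyme inhibitors, which protect ornithine decarboxylase from breakdown. Azin2 rose by 0.51, from 7.12 ± 0.01 to 7.63 ± 0.11 (SD, n = 3, limma adjusted p = 0.00662). Azin1 fell by 0.48, from 10.46 ± 0.03 to 9.99 ± 0.07 (adjusted p = 0.0064). Both groups were apart for both genes, with the Azin2 arrays at 7.10 to 7.13 and 7.51 to 7.72 and the Azin1 arrays at 10.43 to 10.49 and 9.93 to 10.07.

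Among 13 genes of nitric oxide synthesis and its cofactor tetrahydrobiopterin, 0 rose and 1 fell (median -0.01). Pts, an enzyme of cofactor synthesis, fell by 0.39 (limma adjusted p = 0.0434, and up to 0.147 in the 4 of 6 fits with 1 array left out that ended the call, those without PBS 1, PBS 2, Con A 2 or Con A 3). Gch1, which encodes the first enzyme of cofactor synthesis and was chosen after its values were seen, differed by 0.21 and did not pass.

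Among 16 kynurenine and other tryptophan enzymes, 0 rose and 2 fell (median 0.05). Got2 and Haao fell by 0.36 and 0.29 (limma adjusted p = 0.0221 and 0.0333), and both calls ended when any array other than PBS 3 was left out. Kmo, kynurenine 3-monooxygenase, chosen after its values were seen, stood at 6.76, 6.98 and 7.93 after PBS and 7.63, 8.35 and 9.87 after Con A, and its difference of 1.39 did not pass (adjusted p = 0.172). Of 8 genes of the aryl hydrocarbon receptor, which kynurenine activates, and its targets, 0 rose and 1 fell (median 0.06). Nqo1 fell by 0.44 (adjusted p = 0.0459), and the call ended whichever array was left out.

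Of 17 other cytosolic aminoacyl-tRNA synthetases, the enzymes of the same kind as Wars, 2 rose and 1 fell (median 0.20). Their differences lay between -0.50 and 0.52, against 1.79 for Wars. Farsa and Gars rose by 0.52 and 0.29 and Sars fell by 0.42 (limma adjusted p = 0.0206, 0.0493 and 0.0306). The Farsa call ended without PBS 1, PBS 2, Con A 2 or Con A 3, the Sars call without any array but PBS 1, and the Gars call without any array. Rars, which charges transfer RNA with arginine and was chosen after its values were seen, differed by 0.20 and did not pass.

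Of 12 genes of the response to amino acid shortage, 1 rose and 1 fell (median 0.19). Cebpg rose by 0.43 (limma adjusted p = 0.0139, and up to 0.0577 without PBS 2, Con A 1 or Con A 2). Sesn2, a stress-induced inhibitor of growth signalling, fell by 0.46 (adjusted p = 0.0334), and lost the call without any array but PBS 3. Atf4, the central factor of this response, and its target Asns differed by 0.14 and 0.23, and neither passed; both were chosen after their values were seen.

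**Figure D5:**
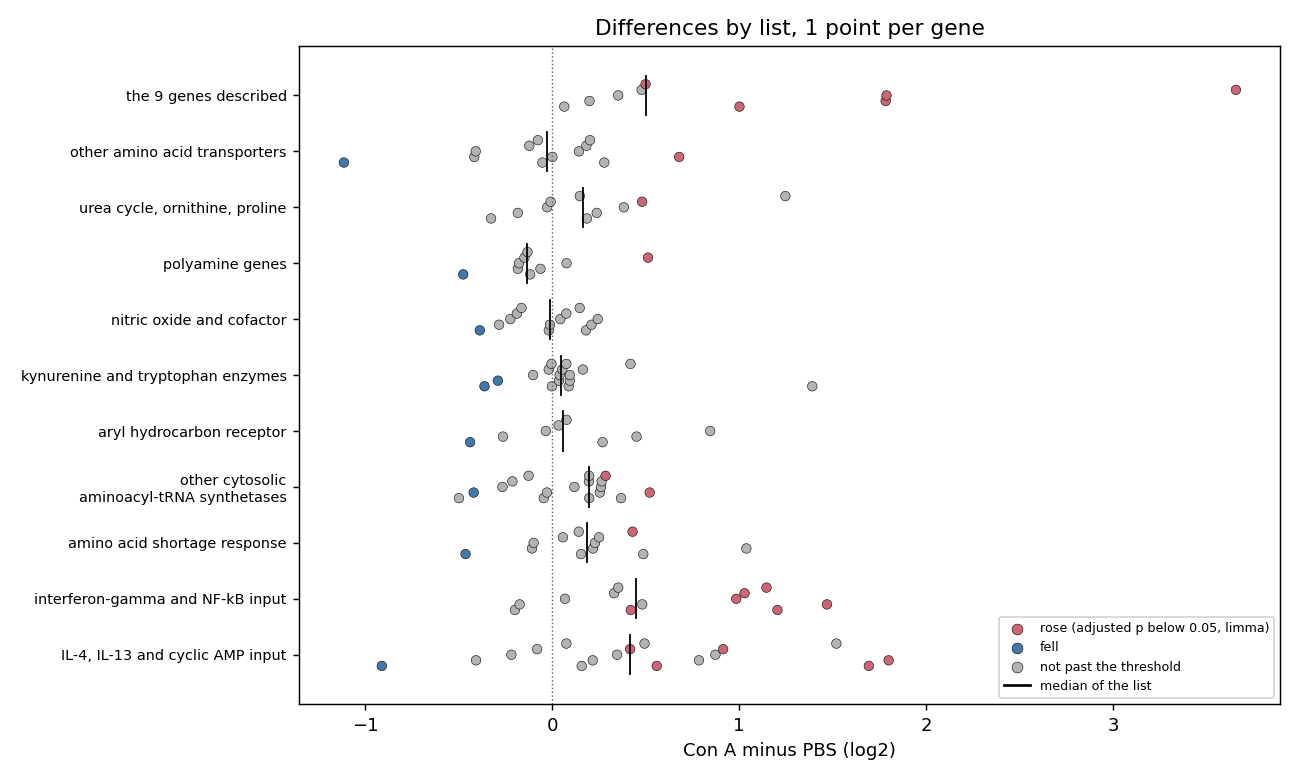
Each point is 1 gene, placed on the horizontal axis by its difference Con A minus PBS on the log2 scale, with 1 line per list and the list median as a black bar. The 17 other aminoacyl-tRNA synthetases lie between -0.50 and 0.52, and Slc7a2 lies alone at 3.66.

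Genes known to act on Nos2, Ido1 and Arg1 were listed in 2 groups, called regulator genes here. The second group also holds companions of Arg1 in alternative activation, which are not said to act on it. Of 12 genes of interferon-gamma and NF-kB input, 6 rose and 0 fell (median 0.45). Irf1, a transcription factor that is needed for Nos2 induction in macrophages, rose by 1.47 (limma adjusted p = 0.000604), from 11.35 to 11.63 on the PBS arrays to 12.83 to 13.07 on the Con A arrays. Relb, Tnf and Nfkb2 rose by 1.20, 1.15 and 1.03, and the call of Nfkb2 ended without PBS 1 or Con A 2 (adjusted p up to 0.0541). The receptor genes Ifngr1 and Ifngr2, chosen after their values were seen, differed by 0.07 and -0.20 and did not pass.

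Of 17 genes of IL-4, IL-13 and cyclic AMP input to Arg1, and of its companions in alternative activation, 5 rose and 1 fell (median 0.42). Companions such as Mrc1 and Tgm2 are counted together with the inputs. Pparg, a nuclear receptor, rose by 1.80, from 9.11, 9.02 and 10.10 to 11.17, 11.16 and 11.30 (limma adjusted p = 0.00562). The mannose receptor gene Mrc1 rose by 1.69 (adjusted p = 0.00292). The transglutaminase gene Tgm2 rose by 0.91 (adjusted p = 0.0159), and lost the call without PBS 1, Con A 2 or Con A 3 (up to 0.0736). Cebpd fell by 0.91 (adjusted p = 0.000933). The receptor genes Il4ra and Il13ra1 and the factor gene Stat6 differed by 0.35, 0.08 and -0.22 and did not pass. Nor did the companions Retnla (0.49), Chil3 (0.22), Mgl2 (0.16) and Clec10a (-0.08). These genes that did not pass were chosen after their values were seen. Over both lists 11 of 29 genes rose and 1 fell, against 4.59% of all genes that rose and 7.22% that fell. The number that rose was 5 without PBS 1, 7 without PBS 2 and 15 without PBS 3. It was 10 without Con A 1, 5 without Con A 2 and 7 without Con A 3.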

How the data were processed

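Gene expression was measured on 6 mouse Affymetrix gene arrays, 3 after PBS and 3 after Con A. The deposited values are log2 expression values, and the submitters' processing notes name RMA and Partek, with no version. RMA subtracts background, equalises array distributions and combines the probes of a feature. The genome build and annotation behind the values are not given in the sources used here.

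Of 35556 rows, 21789 carry 1 gene symbol, 1621 several and 12146 none in GEO's platform annotation. Rows with 1 symbol were used, 1 per gene (highest mean), giving 19938 genes. The 2 groups were compared on the values as deposited with limma 3.58.1 under R 4.3.3 (lmFit, eBayes, two-sided, Benjamini-Hochberg over all genes, threshold 0.05) with 95% intervals. Differences within pairs of genes were tested by exact permutation with scipy 1.17.1, for 4 pairs, since a pair with Ass1 could not be formed. The fit was tested on simulated data. There were 0 identical pairs of arrays. Precision is limited by having 3 arrays in each group.

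The genes, the 8 pathway, 2 regulator and 8 cell marker lists and the tests were chosen with earlier results of these data known. Of 234 list entries, 216 could be matched to tested genes, 3 through an older or newer symbol. Named were all members and, of each list, up to 4 genes with the largest difference past the threshold, or 2 as values where none passed; exceptions are stated. For Kupffer cells these were Vsig4 (1.23) and Cd5l (0.96), for hepatocytes Alb (0.86) and Fgb (0.52), and for T cells and EL4 Cd28 (0.30) and Cd8a (0.18). Of the other marker lists these were Mmp9 (-0.58), F13a1 (-2.16), Ccr2 (-2.00), Cx3cr1 (-1.81), Irf8 (0.98), Wdfy4 (-0.66), Kit (1.43), Epx (1.13), Prg2 (1.05), Gata2 (0.85), Pecam1 (1.55) and Lyve1 (-1.33). Promoter windows are from RefSeq (GRCm38.p6). Protein sequences were not used here.

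Alternatives were the replicate number as a block, arrays centred on their medians, quantile normalization, genes above the median level only, the mean of all rows of a gene, eBayes with trend and robust, array weights, and each array left out in turn.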

Additional observations from a re-analysis of the deposited data

How the results depend on the processing

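All 9 genes kept the sign of their difference under every alternative run. Slc7a2, Nos2 and Wars kept their call in all 13 alternatives and Arg1 in all 12 in which it was tested, since the restriction to genes above the median level leaves out Arg1 and Ido1. The number of the 9 that rose lay between 4 and 7 with 1 array left out. It was 5 or 6 under the other alternatives that tested all 9, and 0 fell in any alternative. After quantile normalization the 5 included Slc7a1 and not Arg2. Among genes above the median level only, 5 of the 7 tested rose, Slc7a1 among them (limma adjusted p = 0.045). For the 97 pathway genes the number that rose ranged from 2 to 14 with 1 array left out, and the number that fell from 2 to 8. The number that fell was also 5 after quantile normalization and 9 with the replicate number as a block. It was 11 with array weights, and 11 of the 70 above the median level. Of the 29 regulator genes 5 to 15 rose with 1 array left out. Over all genes 2355 passed, against 1140 when PBS 1 was left out, 1272 for Con A 2 and 1480 for Con A 3. With 1 array left out, the change of Slc7a2 minus that of Slc7a1 ranged from 2.95 to 3.51, Nos2 minus Arg1 from 0.58 to 0.98 and Ido1 minus Wars from -1.65 to -1.52. The share of members with a mean rank under the middle of the array was 4 of 9 after PBS and 1 of 9 after Con A, among all rows and among rows with 1 symbol.

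The labels number the replicates 1 to 3 in both groups. Deviations from the group means correlated at 0.23, -0.17 and 0.56 between same-numbered arrays (19938 genes). The value for PBS 3 and Con A 3 was the highest between any arrays of different groups. PBS 2 correlated best with Con A 1 (0.54). The labels do not say whether same-numbered samples share more than the number, and 3 arrays in each group are too few to decide it. With the replicate number as a block 6 of the 9 genes rose, Slc7a1 being added (adjusted p = 0.0159), 10 of the pathway genes rose, and 2 of the regulator genes fell against 1 without it.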
